A study of Mus musculus with 16 samples.

Results

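The Schwann cell and peripheral myelin genes described here are Mbp, Pmp22, Mag, Prx, Sox10 and S100b. They were chosen by gene symbol, and each symbol matched a single row of both deposited tables, which gave 6 of 21011 genes in tibialis anterior (TA) muscle and 6 of 38933 genes in cortical bone. Across the muscle libraries of aged mice all 15 correlations between the 6 genes were positive, with a median r of 0.68 against 0.19 over all pairs of well-counted coding genes. After adjustment 5 pairs passed for Pearson's r and 0 for Spearman's rho. None of the 6 passed the test between BAY-treated and vehicle-treated mice. In cortical bone none passed it either, and in 7 of 8 libraries the 6 lay mostly within the range of genes that bone does not use. Their median was above that of 10 oligodendrocyte and melanocyte genes there.

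Bulk RNA-seq had been run on whole TA muscle and on collagenase-digested cortical bone shafts of aged female C57BL/6 mice, 18 months of age when dosing began. The mice received vehicle (VEH) or BAY2416964 (BAY), an antagonist of the aryl hydrocarbon receptor (AhR), a transcription factor that is switched on by small ligands such as kynurenine. BAY was given by oral gavage for 8 weeks, 5 days a week, at a dose of 30 mg/kg, and mice of both groups also received calcein, a label of new bone mineral, before they were killed. No allele is named for either group. Each group held 4 mice in each tissue, for 16 libraries in all, and a library is called here by its group and number (VEH1 to VEH4, BAY1 to BAY4). The numbers do not tie a VEH mouse to a BAY mouse.

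Schwann cells are the glia of peripheral nerves, and they wrap the larger axons in many layers of compact myelin. Mbp (myelin basic protein) and Pmp22 (peripheral myelin protein 22) lie in the compact layers, Mag (myelin-associated glycoprotein) faces the axon, and Prx (periaxin) forms a scaffold under the outer Schwann cell membrane. Sox10 is the transcription factor that Schwann cells need at every stage, and S100b is a calcium-binding protein widely used to stain them. In muscle these cells lie along intramuscular nerve branches and, as terminal Schwann cells, over the neuromuscular junctions. Several of the genes are also used elsewhere, Mbp, Mag and Sox10 in oligodendrocytes of the brain, Sox10 and S100b in melanocytes, S100b in adipocytes and chondrocytes, and Pmp22 in fibroblasts. In bulk tissue, fewer Schwann cells and less RNA per Schwann cell cannot be told apart.

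In the mm39 build used for the tables, Pmp22 lies on chromosome 11 (63019808 to 63050374, plus strand) and Mag on chromosome 7 (30598601 to 30614299, minus strand). Prx lies on chromosome 7 (27196813 to 27219640, plus strand), Sox10 on chromosome 15 (79039108 to 79049441, minus strand) and S100b on chromosome 10 (76089687 to 76096994, plus strand). Genes on the opposite strand overlap 4 of the 6: Gm58827 and the pseudogene Rpl21-ps8 at Mbp, Gm44662 at Mag, Gm15541 at Prx and the protein-coding gene Dip2a at S100b. The library kit described for muscle keeps the strand, but whether the read counting used it is not given in the sources used here, so reads of overlapping partners may be among those of these 4 genes.

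The upstream sequences of Prx, Mag and S100b are shown because Sox10 is among the 6 genes and Sox proteins bind short A- and T-rich words. Each is the 250 bases before a RefSeq transcription start in build GRCm38.p6, which is not the build of the tables, written 5' to 3' on the gene's own strand. The word AACAAA was searched on both strands, together with the words that have T in place of its first base, of its last base or of both, and a match is in capitals. The windows are chr7:27499074-27499323 (plus strand) for Prx, chr7:30914864-30915113 (minus strand) for Mag and chr10:76253586-76253835 (plus strand) for S100b.
Prx: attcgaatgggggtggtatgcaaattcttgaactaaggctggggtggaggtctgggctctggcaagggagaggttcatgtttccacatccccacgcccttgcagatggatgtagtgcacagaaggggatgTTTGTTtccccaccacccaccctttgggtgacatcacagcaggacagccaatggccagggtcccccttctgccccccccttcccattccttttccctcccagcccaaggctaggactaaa
Mag: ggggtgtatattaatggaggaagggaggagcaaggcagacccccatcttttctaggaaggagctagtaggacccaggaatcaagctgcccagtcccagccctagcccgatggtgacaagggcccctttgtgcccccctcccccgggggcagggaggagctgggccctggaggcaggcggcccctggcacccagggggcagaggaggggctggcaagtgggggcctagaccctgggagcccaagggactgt
S100b: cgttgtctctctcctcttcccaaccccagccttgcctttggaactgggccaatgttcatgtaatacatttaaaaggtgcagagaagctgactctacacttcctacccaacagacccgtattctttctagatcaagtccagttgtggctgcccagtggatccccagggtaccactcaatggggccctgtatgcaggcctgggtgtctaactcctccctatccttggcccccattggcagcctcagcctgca
Prx held a single match, TTTGTT, which is AACAAA on the opposite strand and begins 120 bases before the start. No match was found in the other 8 windows of these genes, 3 of Mag, 4 of Pmp22 and 1 of S100b. Among all 32851 windows of the same length, 35.0% held at least 1 match, so a match is a description of these letters and not a binding site.

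Reads counted on genes ranged from 6131921 to 9262388 per library in muscle and from 930306 to 6951916 in bone. Among the muscle libraries VEH3, whose column carries a word for replacement, stood apart in adipocyte genes, which summed to 350.0 CPM (reads scaled to the same total in every library) against 39.3 to 57.4 in the other 7, and in fibroblast genes, which summed to 427 CPM against 136 to 206. In bone, genes that the tissue does not use were measured with 1191 olfactory receptor genes, whose density was 0.136 CPM per kb in VEH1 and 1.46 to 9.44 CPM per kb in the other 7 libraries. The muscle comparisons of the 6 genes and the summaries over lists are therefore also given without VEH3, and bone levels are set against the olfactory receptor density of the same library.

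In TA muscle the compact myelin and scaffold genes were the best counted. Per kb of the canonical transcript, mean levels over the 8 libraries were 3.92 ± 1.56 CPM for Mbp, 2.93 ± 1.67 for Pmp22, 1.77 ± 0.590 for Prx, 0.687 ± 0.297 for Sox10, 0.354 ± 0.181 for Mag and 0.352 ± 0.197 for S100b (SD, n = 8). For each pair of neighbours in this order the ranges over the 8 libraries overlapped. The order depends on the transcript length used: over the union of all annotated exons, Pmp22 stood highest at 1.97 CPM per kb, then Prx at 1.51 and Mbp at 0.867. Over all 8 libraries Mbp rested on 533 reads, Prx on 534 and Pmp22 on 519, but Sox10 on 117, Mag on 44 and S100b on 37.

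Of the other cell types that use these genes, oligodendrocytes and melanocytes left few marker reads in muscle. None of the 5 oligodendrocyte markers (Mog, Mobp, Opalin, Ermn, Hapln2) was in the muscle table, which holds genes with at least 5 reads over the 8 libraries, and of the 6 melanocyte markers only Mitf, which many cells use, was in it. Fibroblast genes, at a summed level of 136 to 427 CPM, and adipocyte genes, at 39.3 to 350.0 CPM, were present in every library. The level of S100b, a gene that adipocytes also use, had r = 0.30 with the summed adipocyte genes (exact permutation P = 0.452, adjusted P = 0.542 over the 6 genes; rho = 0.19, exact permutation P = 0.665), and r was -0.42 without VEH3. For Mbp r was 0.65 (exact permutation P = 0.0926, adjusted P = 0.278) and -0.28 without VEH3. The part of fibroblasts in the level of Pmp22 was not tested.

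Of the compact myelin genes, Mbp stood at 5.24, 8.23, 15.2 and 6.44 CPM in VEH1 to VEH4 and at 10.2, 4.89, 9.93 and 7.43 CPM in BAY1 to BAY4. The highest library was VEH3 and the lowest BAY2. BAY1 and BAY3 lay above VEH1, VEH2 and VEH4, so the groups overlapped. BAY minus VEH was -0.05 on the log2 scale (SE 0.32, 95% interval -0.73 to 0.63, limma P = 0.877, adjusted P = 0.990 over all genes, exact permutation P = 0.886). Without VEH3 the difference was 0.26 (SE 0.27), on the other side of 0.

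Pmp22 stood at 5.70, 6.55, 19.2 and 7.04 CPM in VEH1 to VEH4 and at 6.19, 5.22, 8.13 and 6.45 CPM in BAY1 to BAY4. VEH3 was 2.99-fold above the mean of the other 3 VEH libraries, which themselves lay within the range of the BAY libraries. BAY minus VEH was -0.39 on the log2 scale (SE 0.32, 95% interval -1.09 to 0.30, limma P = 0.243, adjusted P = 0.698, exact permutation P = 0.486), and 0.00 without VEH3 (SE 0.20, 95% interval -0.43 to 0.43). Across the 8 libraries Pmp22 followed the summed adipocyte genes with r = 0.93 (exact permutation P = 0.0632, adjusted P = 0.278 over the 6 genes; rho = 0.26, exact permutation P = 0.536), which became 0.05 without the libraries farthest from the median, VEH2 and VEH3, and so rests on them. The part of adipocyte tissue in its level was not tested.

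Mag, the adhesion molecule of the membrane next to the axon, stood at 0.466, 0.558, 0.756 and 0.477 CPM in VEH1 to VEH4 and at 1.10, 0.489, 1.42 and 0.421 CPM in BAY1 to BAY4. These values are 3 to 11 reads per library, with BAY1 and BAY3 above every VEH library and BAY2 and BAY4 among or below them. BAY minus VEH was 0.44 (SE 0.65, limma P = 0.505, adjusted P = 0.842, exact permutation P = 0.371), and leaving out single libraries gave 0.14 (without BAY3) to 0.72 (without BAY4), with 0.59 without VEH3.

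Prx stood at 4.07, 7.25, 13.8 and 6.92 CPM in VEH1 to VEH4 and at 10.04, 7.66, 9.93 and 8.98 CPM in BAY1 to BAY4. All 4 BAY libraries lay above VEH1, VEH2 and VEH4, and VEH3 lay above all of them. BAY minus VEH was 0.32 (SE 0.29, 95% interval -0.31 to 0.95, limma P = 0.290, adjusted P = 0.722, exact permutation P = 0.514). Without VEH3 it was 0.63 (SE 0.22, 95% interval 0.14 to 1.11), with a limma P under 0.05 that did not hold after adjustment (adjusted P = 0.400), and it stayed under the 2-fold threshold. In the fit without VEH3, 8.15% of all genes had P under 0.05 and stood higher in BAY, against 1 of the 6 here, and 2.36% of all genes were called, against 0 of the 6. Without VEH1, the lowest library, the difference was 0.04.

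Sox10 stood at 0.931, 1.81, 3.02 and 1.19 CPM in VEH1 to VEH4 and at 1.65, 1.14, 2.97 and 2.24 CPM in BAY1 to BAY4. Its highest libraries, VEH3 and BAY3, were in different groups, and the VEH range enclosed the BAY range. BAY minus VEH was 0.26 (SE 0.46, limma P = 0.578, adjusted P = 0.866, exact permutation P = 0.629). Single libraries moved this value, to 0.58 without VEH3, 0.50 without BAY2, 0.04 without BAY3 and 0.0096 without VEH1.

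S100b stood at 0.349, 0.418, 0.972 and 0.119 CPM in VEH1 to VEH4 and at 0.963, 0.326, 0.903 and 0.701 CPM in BAY1 to BAY4. The VEH libraries held 1 to 9 reads and the BAY libraries 2 to 7, with VEH3 highest and VEH4 lowest. BAY minus VEH was 0.89 (SE 0.81, limma P = 0.295, adjusted P = 0.723, exact permutation P = 0.371), a value that VEH4 with its single read enlarged: it was 0.36 without VEH4, 1.36 without VEH3 and 0.25 on a log2(CPM + 1) scale.

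Against a background of 2.43% of all muscle genes called (P under 0.05 with a change of 2-fold or more), limma called 0 of the 6, and 0 of the 6 had an unadjusted P under 0.05 against 9.79% of all genes. No gene of the 6 had groups that did not overlap, against 5.73% of all genes. The median of the 6 log2 differences was 0.29 with all libraries and 0.59 without VEH3, where the median of all genes was 0.06 and 0.12. A change of 2-fold lay inside the 95% interval of Pmp22, Mag, Sox10 and S100b in at least 1 direction, and outside that of Mbp and Prx. Without VEH3 it lay inside that of Prx and outside that of Pmp22.

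**Figure D1:**
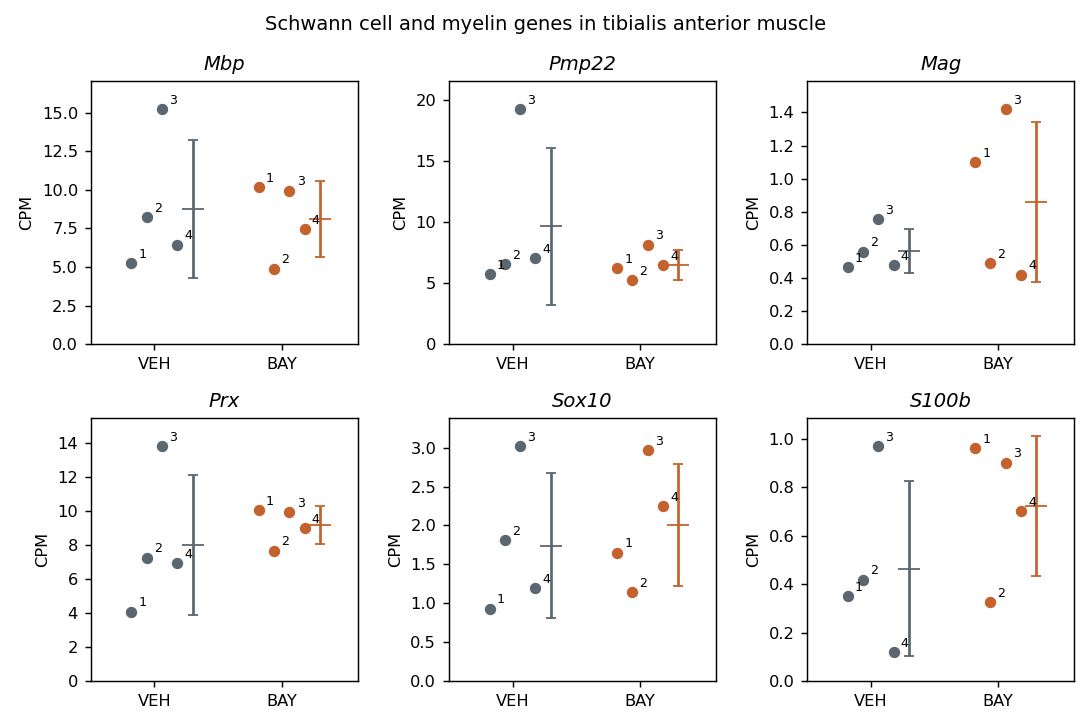
Level in CPM (linear axis from 0) of the 6 genes in each TA muscle library, 4 VEH (grey) and 4 BAY (orange), numbered by mouse, with the mean and SD of each group drawn beside the points. VEH3 is the highest library for Mbp, Pmp22, Prx, Sox10 and S100b, at 15.2 CPM for Mbp and 19.2 CPM for Pmp22, and the groups overlap for all 6 genes.

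**Figure D2:**
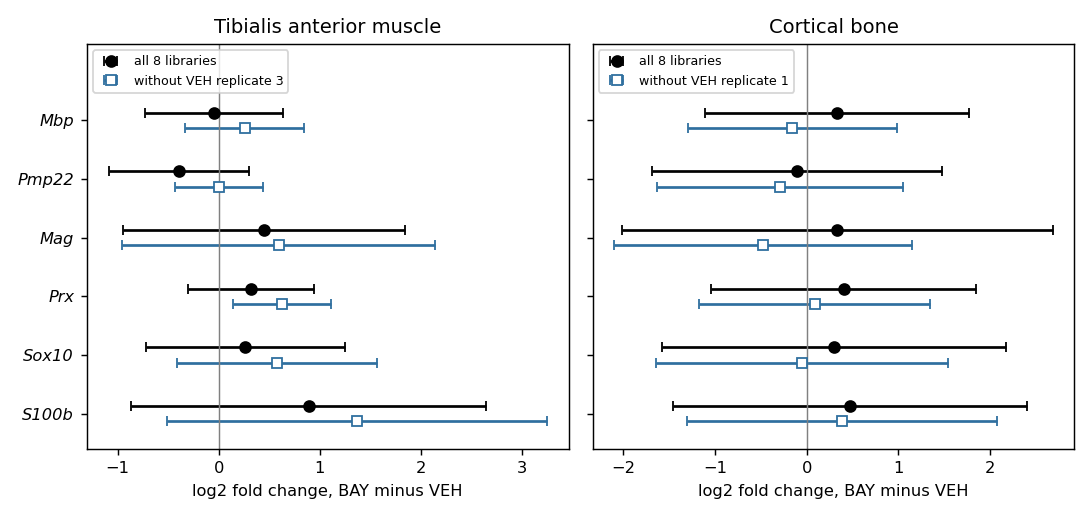
Difference BAY minus VEH on the log2 scale with its 95% limma interval for the 6 genes in muscle (left) and cortical bone (right), over all 8 libraries (filled circles) and without a single VEH library (open squares; VEH replicate 3 in muscle, VEH replicate 1 in bone). Every interval spans 0 except that of Prx in muscle without VEH3, 0.14 to 1.11.

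Of 31 further genes of the Schwann cell programme, 28 were in the muscle table (Gjb1, Sox2 and Gfap were not). Limma called 0 of them and 0 had P under 0.05, against 2.43% and 9.79% of all genes. Of the 28, 18 stood higher in BAY, with a median log2 difference of 0.10, where 55.2% of all genes stood higher and their median was 0.06. Without VEH3, 21 stood higher with a median of 0.32, where 61.1% of all genes stood higher with a median of 0.12.

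Among the compact myelin and myelin lipid genes, Cnp, a myelin phosphodiesterase, stood at a mean of 4.50 CPM in VEH and 4.37 CPM in BAY, a log2 difference of -0.04 (SE 0.24). Of the junction and scaffold genes, Drp2, the partner of Prx under the Schwann cell membrane, differed by 0.04 (SE 0.27) and Nfasc, which holds the node and the paranode, by 0.26 (SE 0.40). Nab1 and Nab2, co-regulators of the Egr transcription factors, differed by 0.15 (SE 0.22) and 0.08 (SE 0.36). Erbb3 and Erbb2, the receptor pair for neuregulin from the axon, differed by -0.21 (SE 0.38) and 0.38 (SE 0.31). Of the genes of non-myelinating Schwann cells, the adhesion molecules Ncam1 and L1cam differed by 0.12 (SE 0.42) and 0.15 (SE 0.29). Without VEH3 these 9 differences lay between -0.06 (Cnp) and 0.54 (Erbb2), with that of Erbb3 at 0.12, on the other side of 0.

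Across the 8 muscle libraries Pearson's r between the log2 levels of the 6 genes was above 0 in 15 of 15 pairs, with a median of 0.68 and a range of 0.31 to 0.85, and Spearman's rho had a median of 0.69. For comparison, the median r over all pairs of the 11216 protein-coding genes that averaged 1 CPM or more was 0.19, and 9.76% of those pairs lay above 0.68. After the mean of each treatment group had been subtracted the median over the 15 pairs was 0.74, all 15 above 0, and without VEH3 it was 0.67, again all 15 above 0. It was 0.54 after median centring and 0.51 after quantile normalization.

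The closest pairs were Mbp and Sox10 (r = 0.85, exact permutation P = 0.00794, adjusted P = 0.0397 over 15 pairs; rho = 0.81, exact permutation P = 0.0218, adjusted P = 0.0653), Prx and Sox10 (r = 0.84, exact permutation P = 0.00484), Mbp and Prx (r = 0.83, exact permutation P = 0.0114) and Mbp and Pmp22 (r = 0.82, exact permutation P = 0.00496). In all, r had an adjusted P under 0.05 in 5 pairs and an unadjusted one in 7, and rho in 0 and 7. None of the 5 pairs with Mag had an unadjusted P under 0.05 for r. Without the 2 libraries farthest from the median of the first gene, r was 0.79 for Mbp and Sox10, 0.68 for Prx and Sox10, 0.91 for Mbp and Prx and 0.52 for Mbp and Pmp22. The loosest pair was Pmp22 and Mag (r = 0.31, exact permutation P = 0.474, adjusted P = 0.474; rho = 0.43, exact permutation P = 0.299, adjusted P = 0.299), which came to 0.03 without VEH3 and BAY3 and to 0.56 without VEH3 alone, where Pmp22 and S100b were the loosest pair at 0.18. Over all pairs the median without 2 libraries was 0.64, with 14 of 15 above 0.

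**Figure D3:**
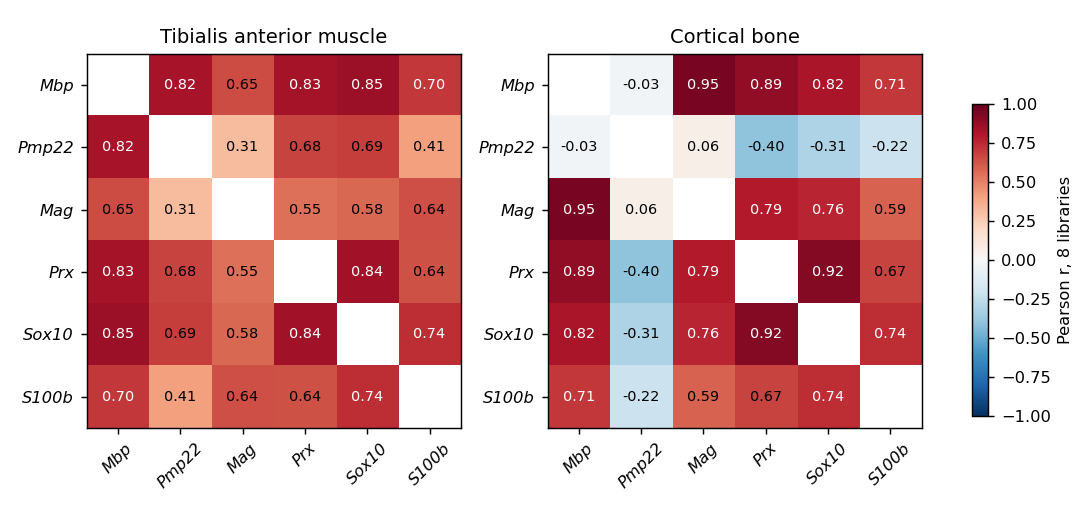
Pearson's r between the log2 levels of each pair of the 6 genes over 8 libraries, in TA muscle (left) and cortical bone (right), on a colour scale from -1 (blue) to 1 (red). In muscle all pairs lie between 0.31 and 0.85, and in bone the 5 pairs with Pmp22 lie between -0.40 and 0.06 while the other 10 are at 0.59 or above.

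Set against the mean of the other 5, each gene's r in muscle, over the 8 libraries, was 0.93 for Mbp, 0.88 for Sox10, 0.84 for Prx, 0.73 for S100b, 0.67 for Pmp22 and 0.62 for Mag. A higher r with the same mean was found for 0.357% of the 11213 well-counted coding genes in the case of Mbp, 1.51% for Sox10 and 3.42% for Prx, but for 12.03% for S100b, 17.7% for Pmp22 and 25.6% for Mag. Without VEH3 the order changed: r was 0.90 for Mbp, 0.88 for Sox10, 0.76 for Mag, 0.73 for Prx, 0.64 for S100b and 0.60 for Pmp22.

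Over the 17 further Schwann cell genes that averaged 1 CPM or more, r with the mean of the standardized levels of the 6 had a median of 0.70 in muscle, against 0.42 over all 11216 genes, and 13 of the 17 lay above that median. Nab1 (0.95) and Erbb2 (0.82) lay above the 95th percentile of all genes, 0.81, while L1cam (0.37), Nab2 (0.33), Cnp (0.08) and Ngfr (-0.21), a neurotrophin receptor named after its value was seen, lay below the median. Without VEH3 the medians were 0.59 and 0.37, and Nab2 stood at 0.68, Ngfr at 0.21, Cnp at 0.09 and L1cam at 0.02.

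Genes outside the Schwann cell lists followed the pattern more closely still. The 10 coding genes with the highest r with the mean of the 6 were Acsf2, Paox, Map1a, Agtpbp1, Tagln2, Ablim1, Stard7, Eif2ak1, Zfp954 and Araf, with r between 0.96 and 0.98 over the 8 libraries, and none of them is on a cell type list used here. Without VEH3 the r of these 10 lay between 0.94 and 0.99, and only Tagln2 remained among the first 10. For the single genes, those most alike were Atp2b4, Antxr2 and Rnf41 for Mbp, Tdrp, Acss1 and Ptp4a1 for Pmp22, and Klf6, Qrich1 and Kdm3a for Mag. They were Lmod1, Sik2 and Cep85l for Prx, Abca2, Lrpap1 and Ltbp1 for Sox10, and Fez2 and Dennd2c for S100b, all with r of 0.96 or more. With 8 libraries and 11216 genes, high values of r arise for many genes. The part of depth, dissection and processing in these values was not tested.

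In cortical bone the 6 genes were first set against the olfactory receptor density of the same library, in CPM per kb of the canonical transcript. In VEH1, the deepest library and the one with the lowest density, Mbp stood at 40.6 times that density, S100b at 22.5, Prx at 21.3, Pmp22 at 21.1, Sox10 at 12.4 and Mag at 3.68, on 7 to 98 reads. The 10 oligodendrocyte and melanocyte genes other than Mitf, which bone does not use, stood at a median of 0.915 times the density in VEH1, with a range of 0 to 4.65. Of the 6, only Mag lay within that range. The order of the 6 depends on the transcript length used. Over all bone libraries Mbp averaged 19.8 and Prx 7.50 CPM per kb of the canonical transcript. Over the union of all annotated exons Prx averaged 6.41 and Mbp 4.39 CPM per kb.

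In the other 7 bone libraries the median of the 6 genes was 0.779 to 1.83 times the density. That of the 10 oligodendrocyte and melanocyte genes was lower, at 0.490 to 0.756 times. Mbp stood at 2.69 to 7.47 times in each of them. The highest of the 10 oligodendrocyte and melanocyte genes in each was Mobp, at 3.61 to 6.85 times. Within the same library Mbp lay above Mobp, and so above all 10, in VEH2, VEH3, VEH4, BAY1 and BAY3. It lay below Mobp in BAY2 and BAY4. The difference between Mbp and Mobp was not tested. Prx lay between 0.939 (BAY4) and 3.46 (BAY1), Pmp22 between 0.290 (BAY4) and 3.87 (VEH3), and Sox10 between 0.585 (BAY4) and 2.09 (BAY2). Mag, at 0.680 to 1.57 times, and S100b, at 0.835 to 1.95 times, could not be told from genes that bone does not use. The 31 further Schwann cell genes stood at a median of 6.66 times in VEH1 and 0.468 to 0.904 times in the other 7.

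**Figure D4:**
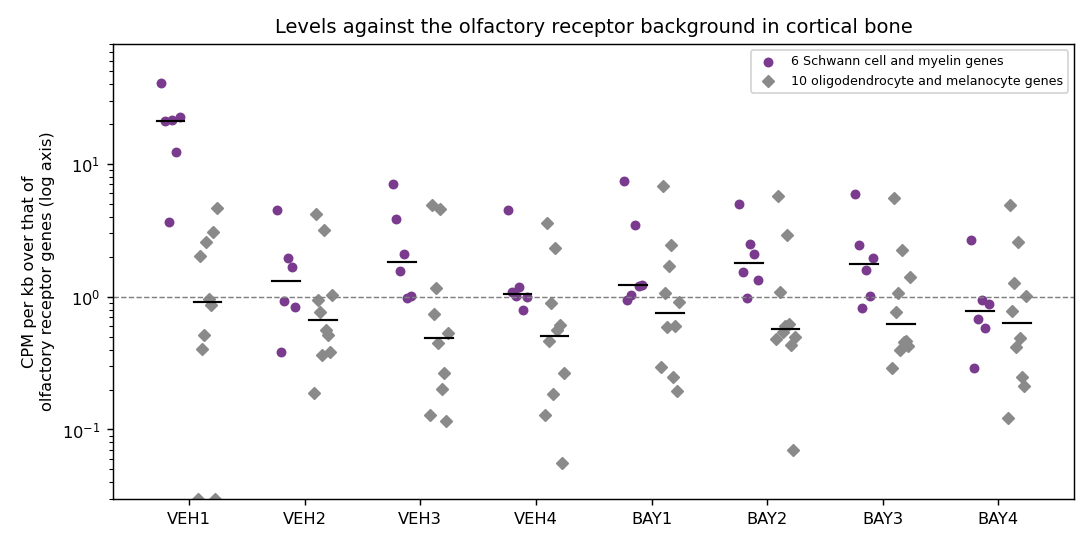
CPM per kb of each gene divided by that of the olfactory receptor genes in the same cortical bone library (log axis, dashed line at 1), for the 6 Schwann cell and myelin genes (purple circles) and 10 oligodendrocyte and melanocyte genes (grey diamonds), with the median of each set as a black bar and genes without a read on the lower edge. In VEH1 the 6 have a median of 21.2 and the 10 a median of 0.915. In the other 7 libraries the medians of the 6 are 0.779 to 1.83 and those of the 10 are 0.490 to 0.756.

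Across the 8 bone libraries most of the 6 genes also followed this density. On the log2 scale r with the density was 0.98 for Mag (exact permutation P = 0.000298, adjusted P = 0.00119 over the 6 genes; rho = 0.90, exact permutation P = 0.00456, adjusted P = 0.00913) and 0.94 for Mbp (exact permutation P = 0.000397, adjusted P = 0.00119; rho = 0.93, exact permutation P = 0.00223, adjusted P = 0.00670). It was 0.77 for Prx (exact permutation P = 0.0111, adjusted P = 0.0221; rho = 0.86, exact permutation P = 0.0107, adjusted P = 0.0161) and 0.74 for Sox10 (exact permutation P = 0.0329, adjusted P = 0.0493; rho = 0.69, exact permutation P = 0.0694, adjusted P = 0.0833). For S100b r was 0.62 (exact permutation P = 0.113, adjusted P = 0.136) with a rho of 0.95 (exact permutation P = 0.00114, adjusted P = 0.00670). Without VEH1 and BAY4 these 5 genes had r of 0.81 to 0.95.

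Pmp22 was the exception, with r = 0.10 (exact permutation P = 0.872, adjusted P = 0.872; rho = -0.24, exact permutation P = 0.582, adjusted P = 0.582), which became -0.33 without VEH1 and BAY4. Its highest bone libraries, BAY3, VEH4 and VEH3 at 18.8, 18.2 and 15.6 CPM, were the 3 in which the bone cell genes summed highest, at 14897 to 21675 CPM against 1005 to 4666 CPM in the other 5. The same 3 libraries were highest for chondrocyte genes (596 to 904 CPM against 225 to 507 CPM) and for marrow and blood genes (489 to 1552 CPM against 153 to 381 CPM). Fibroblast genes summed to 563 to 622 CPM in these 3 but were highest in VEH1, at 632 CPM, where Pmp22 stood at 7.91 CPM. The part of these cells in the level of Pmp22 was not tested.

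**Figure D5:**
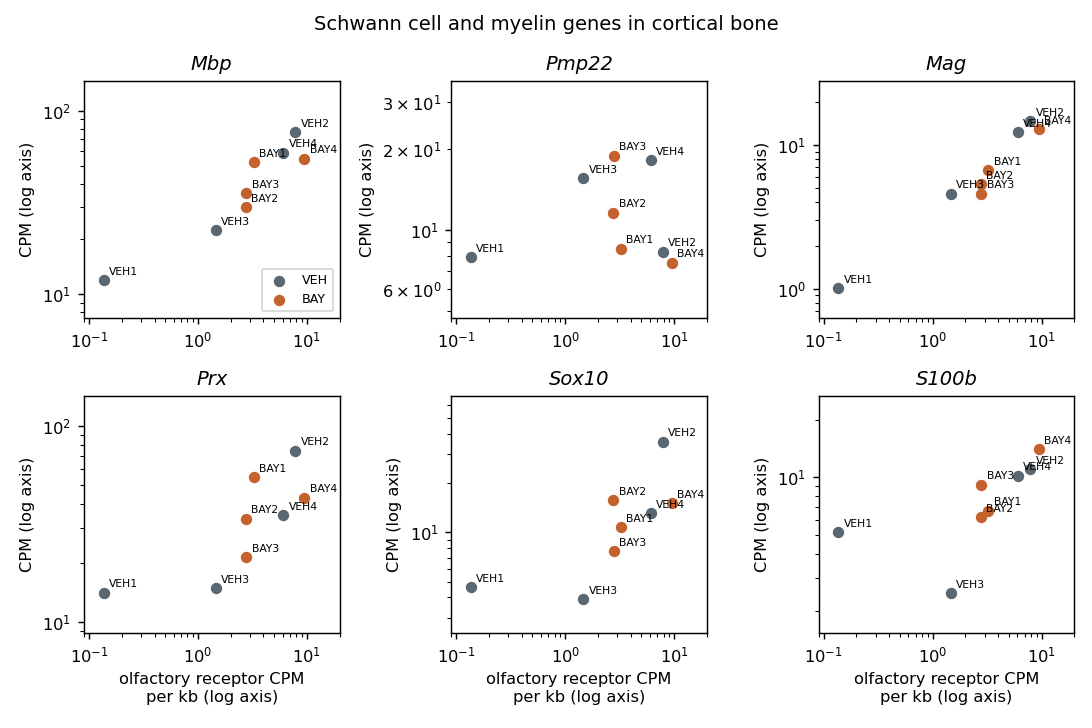
Level in CPM (log axis) of the 6 genes in each cortical bone library against the density of olfactory receptor genes in CPM per kb (log axis), VEH in grey and BAY in orange. Mbp, Mag and Prx climb along the density from VEH1 at 0.136 to BAY4 at 9.44 CPM per kb, and Pmp22 does not.

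The levels themselves spread widely within each bone group. Mbp stood at 11.9, 76.4, 22.3 and 59.0 CPM in VEH1 to VEH4 and at 52.3, 29.8, 35.6 and 54.8 CPM in BAY1 to BAY4. The VEH range enclosed all BAY libraries. Prx stood at 14.1, 74.6, 14.9 and 34.9 CPM in VEH and at 54.5, 33.5, 21.4 and 43.0 CPM in BAY, again with all BAY libraries inside the VEH range.

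Sox10 stood at 4.60, 35.9, 3.90 and 13.1 CPM in VEH1 to VEH4 and at 10.7, 15.7, 7.64 and 15.1 CPM in BAY1 to BAY4. VEH2 was its highest library and VEH3 its lowest. S100b stood at 5.18, 11.0, 2.48 and 10.2 CPM in VEH and at 6.71, 6.20, 9.17 and 14.0 CPM in BAY. Its highest library, BAY4, had the highest olfactory receptor density, and chondrocyte genes, a cell type that also uses S100b, summed to 225 CPM there and to 225 to 904 CPM over all 8 libraries.

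Mag ranged from 1.01 CPM in VEH1 to 14.7 CPM in VEH2 within VEH and from 4.58 to 12.9 CPM within BAY, on 7 to 17 reads per library. Pmp22 ranged from 7.91 to 18.2 CPM in VEH and from 7.52 to 18.8 CPM in BAY, on 7 to 55 reads. For all 6 genes the groups overlapped.

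BAY minus VEH in bone was 0.34 for Mbp (SE 0.67, limma P = 0.623, adjusted P = 0.896, exact permutation P = 0.629) and -0.10 for Pmp22 (SE 0.73, limma P = 0.889, exact permutation P = 0.857). It was 0.33 for Mag (SE 1.09), 0.40 for Prx (SE 0.67), 0.30 for Sox10 (SE 0.87) and 0.47 for S100b (SE 0.89), with limma P from 0.556 to 0.764. The median of all bone genes was 0.84 on the same scale, and 80.9% of them stood higher in BAY, so after each library had been centred on its median the 5 positive values turned negative, to -0.52, -0.52, -0.45, -0.55 and -0.38 for Mbp, Mag, Prx, Sox10 and S100b, and Pmp22 came to -0.95. Without VEH1 the median of all genes was -0.09 and the 6 differences lay between -0.47 and 0.39.

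Against 0.64% of all bone genes called, limma called 0 of the 6, and 0 had P under 0.05, where 0.545% of all genes had P under 0.05 and stood higher in BAY. Nor did the groups of any of the 6 fail to overlap, against 0.406% of all genes. The 95% intervals ran from -1.11 to 1.78 for Mbp and from -2.02 to 2.69 for Mag, so a change of 2-fold in either direction lies within them for each gene.

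Limma called 0 of the 31 further Schwann cell genes in bone, against 0.64% of all genes, and 0 had P under 0.05. Of the 31, 24 stood higher in BAY with a median of 0.50, where 80.9% of all genes stood higher with a median of 0.84. Without VEH1, 14 stood higher with a median of -0.11, where 43.7% of all genes stood higher with a median of -0.09. By group, the myelin gene Cnp differed by 0.32 (SE 0.74), and the scaffold and node genes Nfasc and Drp2 by 1.22 (SE 1.04) and 0.87 (SE 0.81). Egr2, the transcription factor that turns on myelination, and Nab1 differed by -0.02 (SE 0.60) and -0.32 (SE 0.71). Adgrg6, a receptor needed to start myelination, and Dhh, the hedgehog ligand that Schwann cells send to the nerve sheath, differed by -0.10 (SE 0.76) and 0.50 (SE 0.84), and Ncam1 and L1cam by -0.60 (SE 0.67) and 0.29 (SE 0.85). Without VEH1 these 9 differences lay between -0.99 (Ncam1) and 0.35 (Drp2), with Nfasc at 0.12, and those of Cnp and Dhh, at -0.13 and -0.11, were on the other side of 0.

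Between pairs of the 6 genes in bone, r over the 8 libraries had a median of 0.71, which the pairs of all 19846 coding genes that averaged 1 CPM or more nearly matched at 0.69, with 47.8% of those pairs above 0.71. After quantile normalization the median of the 15 pairs was 0.21. The 10 pairs without Pmp22 had a median of 0.78, led by Mbp and Mag (r = 0.95, exact permutation P = 0.000248, adjusted P = 0.00372; rho = 0.90, exact permutation P = 0.00456, adjusted P = 0.0272), which is also the pair closest to the olfactory receptor density. The 5 pairs with Pmp22 had a median of -0.22. Without the 2 libraries farthest from the median the 15 pairs had a median of 0.59 and 10 were above 0.

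Muscle fibre genes, a sign of how much muscle came with the bone, summed to 37611 CPM in BAY1, 40891 CPM in BAY2 and 9881 CPM in VEH1, against 49.5 to 1424 CPM in the other 5 bone libraries. VEH1 is the library in which the 6 genes stood at a median of 21.2 times the olfactory receptor density. BAY1 and BAY2 were also the libraries in which Prx stood highest against the olfactory receptor density after VEH1, at 3.46 and 2.50 times. Of the 6, only Prx had this order. After VEH1, Mbp was highest in BAY1 and VEH3 (7.47 and 7.07) and Sox10 in BAY2 and VEH2 (2.09 and 1.68). Next after VEH1 came VEH3 for Pmp22 (3.87) and Mag (1.57) and BAY3 for S100b (1.95). The part of attached muscle and its nerve in the bone values was not tested.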

How the data were processed

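RNA of TA muscle and cortical bone was sequenced by the authors (the library kit described for muscle selects polyadenylated RNA), who trimmed the reads, aligned them to mm39 with STAR 2.7.8a and assigned them to Ensembl genes by the E/M method of Partek. The deposited values are log2 of CPM plus an offset (0.0004 in muscle, 0.0001 in bone), normalized separately in each tissue, so no test crossed tissues. From these values CPM and, from the steps between low values, reads were recovered. Counting error alone is covered by read counts.

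The 6 genes and all lists were chosen with earlier results of these data known. BAY and VEH (4 against 4) were compared with limma 3.58.1 in R 4.3.3 (eBayes with trend, two-sided) on the deposited log2 values of all genes, with Benjamini-Hochberg adjustment over each table. A call was P under 0.05 with a change of 2-fold or more, the authors' thresholds; they used limma-voom. Exact permutation tests of the 8 libraries are two-sided, and the smallest P that 4 against 4 allows is 0.0286. P-values measure the spread between the mice sampled. Correlations use log2 values, exact permutation of the pairings and Benjamini-Hochberg adjustment over 15 pairs in each tissue.

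Named genes were the 6, per further Schwann cell list those with P under 0.05 and the 2 with the highest mean CPM, the 10 coding genes (mean of at least 1 CPM) most alike the mean of the 6 in muscle, and the 3 most alike each. Some genes that this rule names are not reported here. Olfactory receptor genes and transcript lengths came from GENCODE M39. On simulated data, limma recovered 72% of muscle and 35% of bone genes with a log2 change of 2. Alternatives were log2(CPM + 1), log2(CPM + 0.1), only genes averaging 1 CPM or more, median centring, quantile normalization, no trend, array weights, voom on recovered reads, the replicate number as a block and leaving out each library. After the data had been seen, VEH3 was also left out together with log2(CPM + 1) and together with subtraction of group means.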

Additional observations from a re-analysis of the deposited data

How the results depend on the processing

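Limma called 0 of the 6 genes under all 18 alternatives in muscle and all 17 in bone. For the further Schwann cell genes it called 0 in muscle throughout, and in bone 1 with array weights (Adgrg6) and 1 with voom on recovered reads (Nfasc), fits that called 2.31% and 3.68% of all bone genes. Signs of differences that passed no test changed. In muscle, Mbp came to 0.16 with array weights and 0.23 on log2(CPM + 1) without VEH3, where Pmp22 came to 0.0031. Leaving out each library gave -0.26 to 0.26 for Mbp, -0.58 to 0.0019 for Pmp22, 0.04 to 0.63 for Prx and 0.0096 to 0.58 for Sox10. In bone, median centring gave -0.52 for Mbp, -0.95 for Pmp22, -0.52 for Mag, -0.45 for Prx, -0.55 for Sox10 and -0.38 for S100b. Quantile normalization gave -0.0047 for Mbp, -0.92 for Pmp22, -0.52 for Mag, -0.34 for Sox10 and -0.073 for S100b. Array weights gave -0.23 for Mbp, 0.038 for Pmp22, -0.61 for Mag, -0.074 for Prx and -0.49 for Sox10, and voom gave 0.053 for Pmp22. Leaving out each bone library gave -0.16 to 0.74 for Mbp, -0.37 to 0.11 for Pmp22, -0.47 to 0.82 for Mag, 0.089 to 0.89 for Prx and -0.13 to 0.93 for Sox10. The median correlation moved with quantile normalization, to 0.51 in muscle and 0.21 in bone, and median centring gave 0.54 and 0.73. Leaving out each library gave 0.64 to 0.73 and 0.67 to 0.77. The median over all gene pairs was taken only on the deposited values. The cause of these changes was not tested. Mag and S100b have no value under the filter in muscle, where their means are under 1 CPM.

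With the replicate number as a block, 0 of the 6 genes were called in either tissue and the differences, such as 0.32 for Prx in muscle, were the same. The numbers pair no samples: same-numbered VEH and BAY libraries deviated from their group means with r of -0.09 to 0.01 in muscle and -0.11 to 0.19 in bone. Depth limits Mag and S100b in muscle (44 and 37 reads in all), and in 7 bone libraries the 6 lie mostly within the range of genes that bone does not use.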

Other observations

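Genes of motor and sensory axons were scarce in TA muscle. The cell bodies of these axons lie outside the tissue, and the part of this in the low sums was not tested. Of 11 axon genes, 6 were in the muscle table, and they summed to 1.19 to 4.32 CPM per library, with Stmn2, a microtubule regulator of growing axons, at 1.35 ± 0.772 CPM in VEH and 1.01 ± 0.364 CPM in BAY (SD, n = 4). Limma called 0 of the 6 and 0 had P under 0.05, against 2.43% and 9.79% of all genes. Perineurial genes, of the sheath around nerve bundles, summed to 12.6 to 27.2 CPM in VEH and 11.6 to 18.4 CPM in BAY, highest in VEH3. Of these Itgb4, an integrin of the basal lamina contact, differed by -0.20 on the log2 scale (SE 0.26) and Slc2a1, the glucose transporter of the blood-nerve barrier, by 0.13 (SE 0.29). Without VEH3 these differences were -0.03 and 0.45 (SE 0.21), the second with a limma P under 0.05 that did not hold after adjustment (adjusted P = 0.508).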
